A study of Mus musculus with 10 samples.

Results

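The genes described here are 10 that encode secreted or surface-bound matrix proteins through which astrocytes act on synapses: the thrombospondins Thbs1, Thbs2, Thbs3 and Thbs4, tenascin C (Tnc), the glypicans Gpc4, Gpc5 and Gpc6, and the matricellular proteins Sparc and Sparcl1, the last also called hevin. They were chosen by name, and all 10 of 10 were found among the 19965 genes of the series, each read from the probe set with the highest mean over all samples. Messenger RNA was measured on 10 Affymetrix Mouse Gene 1.0 ST arrays, in cells sorted by flow cytometry from papain-dissociated hippocampi of mice heterozygous for Sox1-GFP, a reporter that places green fluorescent protein (GFP) under control of the stem cell gene Sox1. There were 4 samples of GFP-high (here GFP-positive) cells from old mice (1 year and 9 months), 3 samples of young GFP-positive cells, whose replicates 1, 2 and 3 were 7, 5 and 4 months old, and 3 samples of young GFP-negative cells, at 7, 7 and 4 months. All samples carry the reporter and had no treatment. The submitters' design text has an age of 5 to 7 months for the young animals, whereas 1 title in each young group says 4 months, and the titles were followed. None of the 10 samples holds GFP-negative cells of old mice, so ages were compared in GFP-positive cells only. The labels call the GFP-positive cells neural stem and progenitor cells, and the arrays biological replicates; they do not say whether GFP-positive and GFP-negative cells with the same number came from 1 mouse, and p-values measure the spread between these samples.

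In the developing and adult brain, astrocytes release proteins that tell neurons where and when to build synapses. Thrombospondins start the formation of structurally normal synapses that lack responsive AMPA receptors, through the calcium channel subunit encoded by Cacna2d1. Hevin bridges adhesion proteins across the synaptic cleft, its relative Sparc opposes hevin, and glypicans, heparan sulfate proteoglycans anchored to the membrane by a lipid, bring AMPA receptors to the synapse when shed. Tenascin C is a glycoprotein of the stem cell niche and of injured tissue that binds integrins and tunes growth factor signalling.

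The sorted cells were checked with marker genes. All 12 of 12 astrocyte markers were higher in young GFP-positive than in young GFP-negative cells by limma (adjusted p under 0.05), and the mean log2 value over the list lay between 10.80 and 11.04 in old GFP-positive, between 10.78 and 11.06 in young GFP-positive and between 7.67 and 8.36 in young GFP-negative samples. Of the 10 neural stem and progenitor markers 5 were higher and 0 lower. All 9 microglia, 10 endothelial, 8 oligodendrocyte and 6 oligodendrocyte precursor markers were lower in the young GFP-positive cells. So were 5 of 12 mural and fibroblast markers (1 higher) and 2 of 9 neuron markers (1 higher). Over all 19965 genes 7.68% were higher and 9.30% lower. The single higher mural and neuron markers are shares near that of all genes. Without both young samples numbered 1, 5 of the 10 endothelial markers were lower and 0 mural and fibroblast markers were lower (1 higher). In that setting 0 neuron markers passed in either direction, and 4 neural stem and progenitor markers were higher and 0 lower. The astrocyte, microglia, oligodendrocyte and oligodendrocyte precursor counts stayed at 12, 9, 8 and 6. Over all 19965 genes 1841 then passed in either direction, against 3390 with all samples. Sox1 itself had log2 values of 7.56, 7.56 and 7.32 in young GFP-positive and 7.07, 7.24 and 7.28 in young GFP-negative samples, a difference of 0.28 that did not pass limma (adjusted p = 0.123). Some samples stood apart in ways the labels do not give. Transthyretin (Ttr), the main transcript of the choroid plexus, had 12.59, 9.53 and 6.03 in young GFP-positive replicates 1, 2 and 3, against 12.69, 9.26 and 5.88 in young GFP-negative replicates 1, 2 and 3. Old GFP-positive replicate 3 had an Xist value of 11.90 and a Ddx3y value of 5.32, the pattern of a female, while the other 9 samples had Xist values from 4.95 to 5.69 and Ddx3y values from 9.15 to 9.83.

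**Figure D1:**
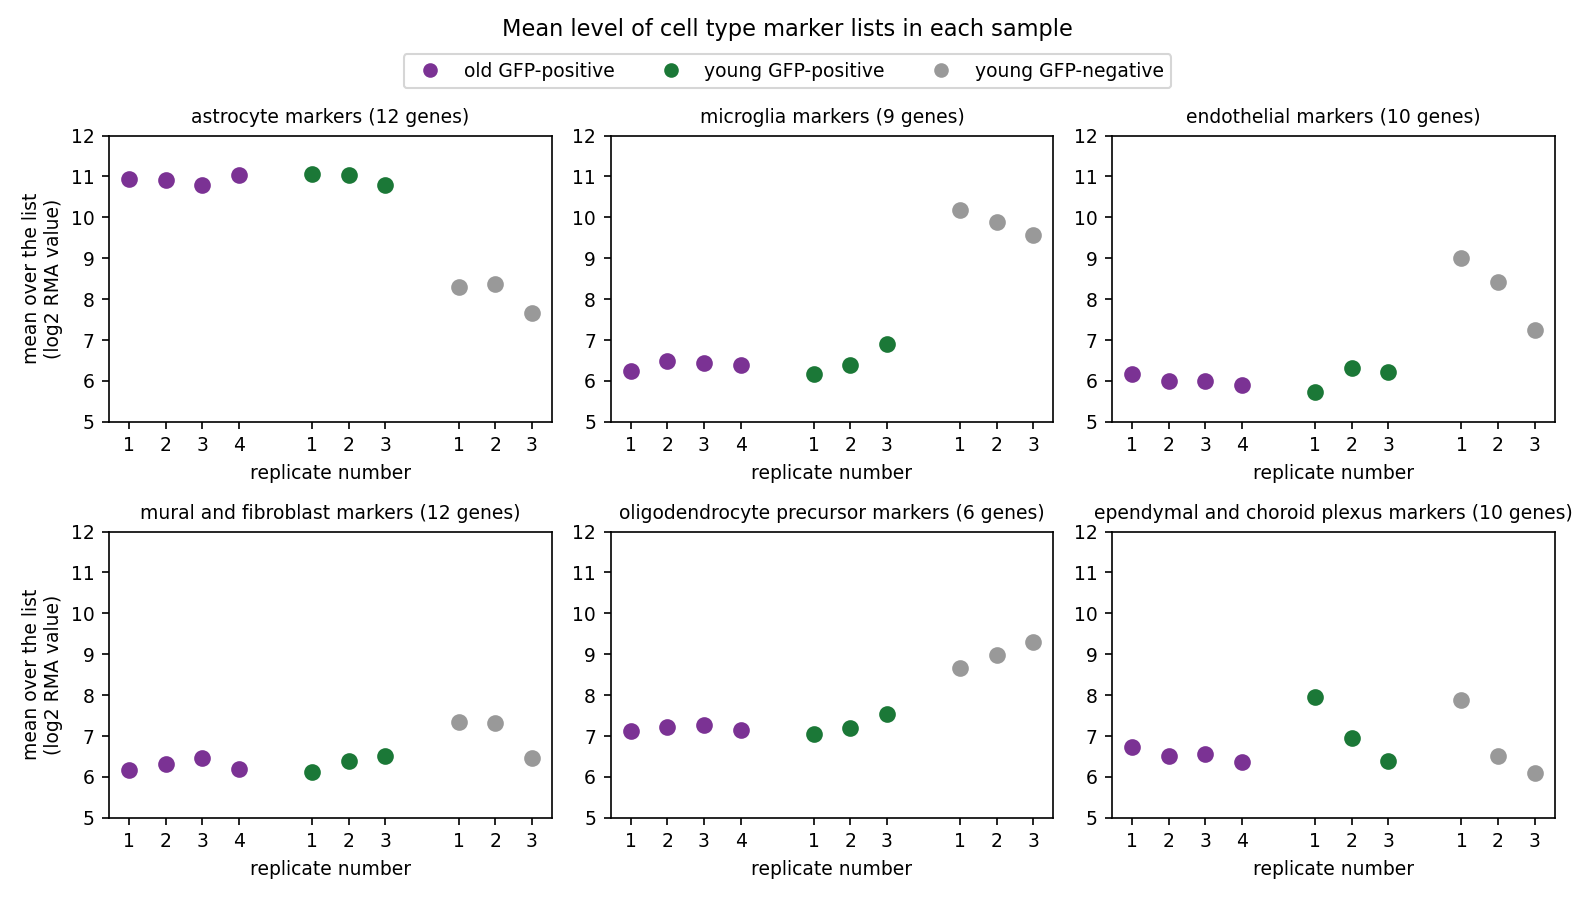
Mean log2 RMA value (vertical axis) of 6 cell type marker lists in each sample (horizontal axis: replicate number within old GFP-positive, young GFP-positive and young GFP-negative cells). Astrocyte markers lie between 10.78 and 11.06 in the GFP-positive samples and between 7.67 and 8.36 in the GFP-negative ones, and the ependymal and choroid plexus list is highest in both young samples numbered 1 (7.95 in GFP-positive and 7.89 in GFP-negative cells).

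RefSeq promoter sequences (GRCm38.p6, 250 bases before to 50 after an annotated start) were at hand for 7 of the 10 genes. The promoters of 4 genes that were higher in young GFP-positive cells, and that of Sparc, which was lower, are shown because these genes moved together or in opposite directions between the sort fractions. Capitals mark GC boxes (GGGCGG, a site of Sp factors) and TATA boxes (TATAAA), each searched on both strands. The intervals are chrX:52164874-52165173 on the minus strand for Gpc4, chr14:115091965-115092264 on the plus strand for Gpc5, chr13:92794769-92795068 on the minus strand for Thbs4, chr4:64046966-64047265 on the minus strand for Tnc and chr11:55420031-55420330 on the minus strand for Sparc.
Gpc4: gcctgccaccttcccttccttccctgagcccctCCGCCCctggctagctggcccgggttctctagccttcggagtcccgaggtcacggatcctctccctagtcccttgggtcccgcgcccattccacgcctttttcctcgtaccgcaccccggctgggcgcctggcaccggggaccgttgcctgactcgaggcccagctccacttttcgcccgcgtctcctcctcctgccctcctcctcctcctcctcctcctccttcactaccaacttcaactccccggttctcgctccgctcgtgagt
Gpc5: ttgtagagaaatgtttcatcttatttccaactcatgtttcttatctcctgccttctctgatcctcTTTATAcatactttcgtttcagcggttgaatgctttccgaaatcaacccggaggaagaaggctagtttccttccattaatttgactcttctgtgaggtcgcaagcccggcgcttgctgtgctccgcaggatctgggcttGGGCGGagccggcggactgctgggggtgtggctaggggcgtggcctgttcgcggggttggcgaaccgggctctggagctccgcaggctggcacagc
Thbs4: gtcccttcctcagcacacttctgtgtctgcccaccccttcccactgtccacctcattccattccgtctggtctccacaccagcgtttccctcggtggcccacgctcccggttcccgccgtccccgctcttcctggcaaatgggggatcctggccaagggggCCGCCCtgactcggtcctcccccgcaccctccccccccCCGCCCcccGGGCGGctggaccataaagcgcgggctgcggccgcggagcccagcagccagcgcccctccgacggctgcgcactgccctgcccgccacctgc
Tnc: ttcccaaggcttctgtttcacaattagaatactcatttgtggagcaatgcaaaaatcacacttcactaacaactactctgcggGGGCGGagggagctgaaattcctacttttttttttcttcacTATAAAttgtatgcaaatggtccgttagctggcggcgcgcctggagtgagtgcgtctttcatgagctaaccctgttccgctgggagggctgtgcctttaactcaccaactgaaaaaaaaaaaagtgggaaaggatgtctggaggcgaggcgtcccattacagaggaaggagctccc
Sparc: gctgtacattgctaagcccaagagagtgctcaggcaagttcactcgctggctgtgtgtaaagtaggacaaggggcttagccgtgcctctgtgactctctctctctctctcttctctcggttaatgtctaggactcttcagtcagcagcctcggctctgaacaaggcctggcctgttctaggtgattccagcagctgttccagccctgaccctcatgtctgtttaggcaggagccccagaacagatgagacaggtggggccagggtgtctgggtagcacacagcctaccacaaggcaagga

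Of the windows shown, Thbs4 held 3 GC boxes, Gpc4, Gpc5 and Tnc held 1 each and Sparc held none, and 35.7% of all 32851 promoters in the table held at least 1. TATAAA stood in the windows of Gpc5 and Tnc, on the strand opposite to the gene in Gpc5, and in 13.6% of all promoters. Counted from the annotated start, the match began at -185 in Gpc5 and at -126 in the Tnc window shown. The windows of Thbs4 and Gpc4 were rich in CpG, with 24 and 22 CpG dinucleotides and a GC content of 72.0% and 66.7%. Those of Gpc5 and Tnc had 17 and 10 CpG (54.7% and 47.3% GC), and that of Sparc had 4 CpG (55.3% GC). Tnc has a second annotated start, whose window is not shown and had 16 CpG (54.0% GC). The medians over all promoters were 7 CpG and 52.7% GC. The letters of a SOX site (AACAAT), a STAT site (TTCNNNGAA) and an AP-1 site (TGANTCA) were in none of the 7 genes' windows, against 10.7%, 8.3% and 7.81% of all promoters. A match or its absence describes these letters only.

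The first comparison asked which of the 10 genes differed between GFP-positive and GFP-negative cells sorted from young hippocampi. All 3 glypicans, Thbs4, Tnc and Sparcl1 were higher in the GFP-positive cells, between 1.86-fold and 4.22-fold, Sparc was lower by 1.69-fold, and Thbs1, Thbs2 and Thbs3 did not pass the test. Thus 6 of 10 genes were higher and 1 lower (limma over all genes, Benjamini-Hochberg adjusted p under 0.05), where 7.68% of all 19965 genes were higher and 9.30% lower. The median log2 difference of the 10 was 1.09, and that of all genes 0.10. In bulk RNA of sorted cells, fewer cells of a type and less RNA per cell cannot be told apart. Levels of different genes are not compared with each other, since each probe set has its own brightness.

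**Figure D2:**
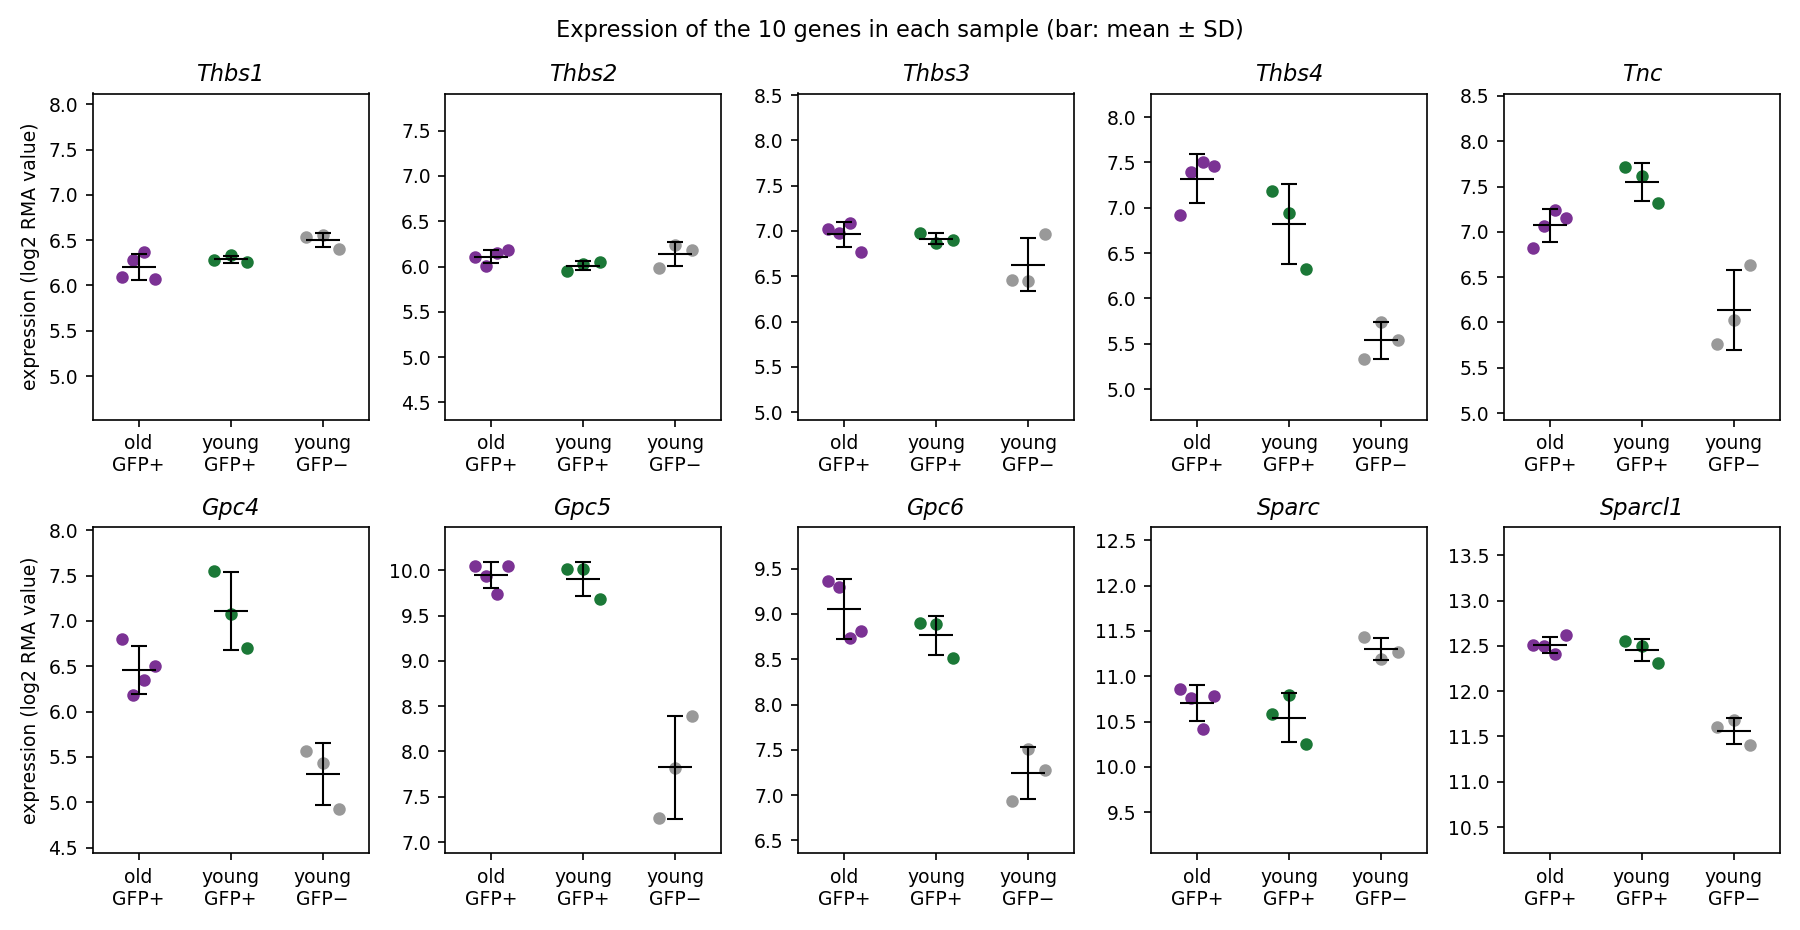
Log2 RMA value (vertical axis, of the same height in every panel) of the 10 genes in each sample of old GFP-positive, young GFP-positive and young GFP-negative cells, points in order of replicate number, with bars for the mean ± SD. Gpc4, Gpc5, Gpc6, Thbs4, Tnc and Sparcl1 lie higher in every GFP-positive than in every GFP-negative sample, and Sparc and Thbs1 lie lower. Thbs1, Thbs2 and Thbs3 span at most 0.63 log2 units over all samples.

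The glypicans differed most. Gpc5 had log2 values of 10.02, 10.01 and 9.68 in young GFP-positive samples, against 7.26, 7.82 and 8.39 in young GFP-negative samples. The GFP-positive values lay close together and far above the GFP-negative ones, which spread over more than 1 log2 unit. The difference was 2.08 ± 0.24 (SE), or 4.22-fold (limma, adjusted p = 9.19e-05). Among the GFP-negative samples, Gpc5 was highest in replicate 3, where the mean of the astrocyte markers was lowest (8.30, 8.36 and 7.67 in replicates 1, 2 and 3) and that of the oligodendrocyte precursor markers highest (8.66, 8.99 and 9.29). The part of these cells in the Gpc5 values was not tested.

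Gpc4, a glypican that astrocytes shed to recruit AMPA receptors, had 7.56, 7.07 and 6.70 in young GFP-positive samples and 5.57, 5.43 and 4.92 in young GFP-negative samples. No values overlapped, although the GFP-positive samples varied among themselves by nearly 1 log2 unit. The difference was 1.80 ± 0.24 (SE), or 3.49-fold (limma, adjusted p = 0.000293). Gpc6, which acts with Gpc4 on glutamate receptors, had 8.90, 8.88 and 8.52 in young GFP-positive samples, against 6.94, 7.51 and 7.28 in young GFP-negative samples. Every GFP-positive value lay at least 1 log2 unit above every GFP-negative one, and the difference was 1.52 ± 0.21 (SE), or 2.87-fold (limma, adjusted p = 0.000373). A second probe set of Gpc6, the only gene of the 10 with more than 1, gave a difference of 1.62.

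Of the thrombospondins, Thbs4 alone passed the test. Thbs4, a pentameric thrombospondin that is also known from the astrocytes of the subventricular zone after injury, had 7.19, 6.94 and 6.33 in young GFP-positive samples, against 5.33, 5.74 and 5.54 in young GFP-negative samples. The groups did not overlap, and the lowest GFP-positive value, that of the 4-month-old mouse, still lay above every GFP-negative one. The difference was 1.28 ± 0.23 (SE), or 2.43-fold (limma, adjusted p = 0.00209). Thbs3, its pentameric relative, had 6.98, 6.86 and 6.90 in young GFP-positive and 6.46, 6.45 and 6.96 in young GFP-negative samples. GFP-negative replicate 3 lay among the GFP-positive values and the others lay below, at a difference of 0.29 with a 95% interval from -0.04 to 0.62 (limma, adjusted p = 0.221). Without GFP-negative replicate 3 the difference was 0.46 and passed (limma, adjusted p = 0.0337).

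The trimeric thrombospondins, the forms first identified as signals for synapse formation, showed little spread. Thbs1 had 6.28, 6.33 and 6.26 in young GFP-positive samples, against 6.54, 6.56 and 6.41 in young GFP-negative samples. Every GFP-positive value was the lower, but the difference of -0.21 had a 95% interval from -0.46 to 0.04 and did not pass (limma, adjusted p = 0.238). Thbs2 had 5.95, 6.03 and 6.05 in young GFP-positive and 5.99, 6.24 and 6.19 in young GFP-negative samples. The groups overlapped, and the difference was -0.13 with a 95% interval from -0.37 to 0.11 (limma, adjusted p = 0.444). All 10 values of Thbs2 lay within 0.28 log2 units. The deposited table has no detection call, so that a low, flat profile cannot be told from no expression. Counting the values alone, the young groups did not overlap for 8 of the 10 genes, 6 higher and 2 lower, where 38.9% of all genes did not overlap (23.9% higher and 15.0% lower).

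Tnc had 7.72, 7.62 and 7.32 in young GFP-positive samples, against 5.77, 6.02 and 6.63 in young GFP-negative samples. The GFP-positive values were all higher, and the GFP-negative samples had the same order as for Gpc5, with replicate 3 highest. The difference was 1.41 ± 0.21 (SE), or 2.66-fold (limma, adjusted p = 0.000617).

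The SPARC pair moved in opposite directions. Sparcl1 (hevin) had 12.55, 12.50 and 12.31 in young GFP-positive samples and 11.60, 11.68 and 11.40 in young GFP-negative samples. Both groups were tight, and the difference was 0.89 ± 0.12 (SE), or 1.86-fold (limma, adjusted p = 3e-04). Sparc had 10.58, 10.79 and 10.26 in young GFP-positive samples, against 11.44, 11.20 and 11.27 in young GFP-negative samples. It was thus the one gene of the 10 to fall past the test, by 0.76 ± 0.16 (SE) on the log2 scale, 1.69-fold (limma, adjusted p = 0.00722). Without both young samples numbered 1, which had the high transthyretin values, the Sparc difference was -0.71 and no longer passed (limma, adjusted p = 0.0763), while the other 6 calls held. Sparc is also made by microglia and endothelium, and the list means in young GFP-positive against young GFP-negative samples ran from 6.18 to 6.90 against 9.57 to 10.18 for microglia, from 5.72 to 6.31 against 7.24 to 9.00 for endothelium and from 6.11 to 6.50 against 6.46 to 7.35 for mural cells and fibroblasts. Of these markers, 9 of 9, 10 of 10 and 5 of 12 were lower past limma, where 9.30% of all genes were lower. Without both young samples numbered 1, 9, 5 and 0 were lower. Over all genes 1841 then passed in either direction, against 3390 with all samples. In GFP-negative replicates 1, 2 and 3 the endothelial mean was 9.00, 8.41 and 7.24 and the microglia mean 10.18, 9.88 and 9.57. Sparc had 11.44, 11.20 and 11.27 in these samples. The part of these cells in the Sparc difference was not tested.

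The second comparison asked whether the 10 genes changed with age within GFP-positive cells, and it shares the young GFP-positive samples with the first. No gene of the 10 passed the test, with adjusted p from 0.388 to 0.951 in limma over all genes. Across the array limma called 3 of 19965 genes, or 0.0150%, all lower in old cells and named after their values were seen: the stress-induced factor Atf3, the arginine methyltransferase Prmt1 and Svbp, a partner of vasohibins. The median log2 difference of the 10 genes was 0.05, equal to that of all genes, and the median size of a difference, whatever its sign, was 0.13 for the 10 and 0.14 for all genes. At an unadjusted p under 0.05 there were 3 of the 10, with Thbs4 higher and Gpc4 and Tnc lower, where 10.2% of all genes had such a p (4.70% higher and 5.46% lower).

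**Figure D3:**
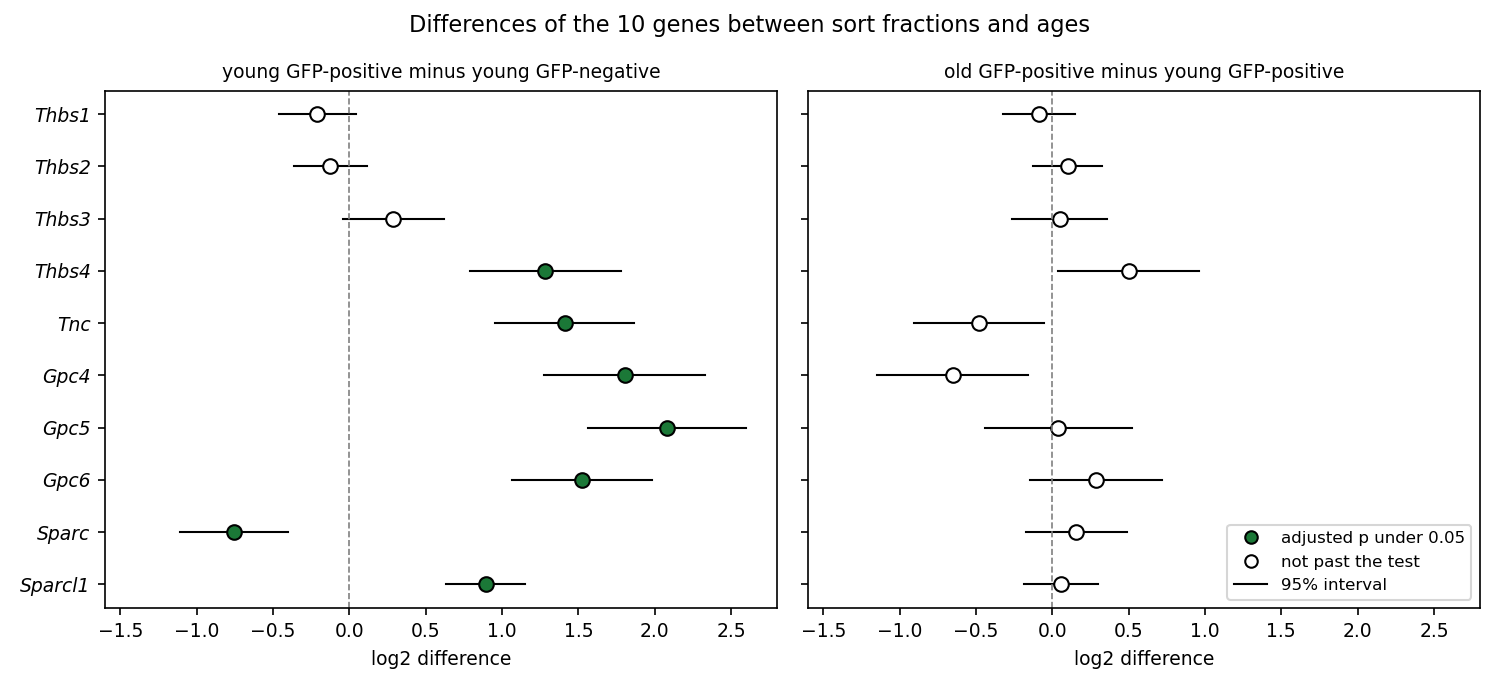
Log2 difference (horizontal axis) of the 10 genes with its 95% interval, for young GFP-positive minus young GFP-negative cells (left) and old GFP-positive minus young GFP-positive cells (right); filled points have an adjusted p under 0.05. The points of the 3 glypicans, Thbs4, Tnc and Sparcl1 lie between 0.89 and 2.08 on the left, Sparc at -0.76, and no point is filled on the right, where values run from -0.65 to 0.50.

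Gpc4 had 6.80, 6.18, 6.35 and 6.50 in old GFP-positive samples, against 7.56, 7.07 and 6.70 in young GFP-positive samples. The old values were mostly lower, but old replicate 1 lay above the youngest mouse, and the difference was -0.65 with a 95% interval from -1.15 to -0.16 (limma, adjusted p = 0.388). Without young replicate 1 it was -0.43. Tnc had 6.83, 7.06, 7.24 and 7.16 in old GFP-positive and 7.72, 7.62 and 7.32 in young GFP-positive samples. It was the one gene of the 10 whose age groups did not overlap, as was the case for 10.9% of all genes (6.85% higher and 4.06% lower), and its difference was -0.48 with a 95% interval from -0.91 to -0.05 (limma, adjusted p = 0.45). The ependymal and choroid plexus list had means from 6.36 to 6.73 in old GFP-positive samples, against 7.95, 6.95 and 6.40 in young GFP-positive replicates 1, 2 and 3, and 0 of its 10 markers had an unadjusted p under 0.05 with age. The falling order over the 3 young samples was shared by 6 of the 10 genes, Gpc4, Gpc5, Gpc6, Thbs4, Tnc and Sparcl1, whatever their age difference. These 6 were also the genes higher in the sort comparison, and the share of all genes with this order was not counted. The oligodendrocyte list had means from 7.84 to 8.04 in old GFP-positive samples, against 8.02, 8.43 and 8.78 in young GFP-positive replicates 1, 2 and 3, with a median age difference of -0.48, 0 of 8 markers past limma and 3 of 8 lower at an unadjusted p under 0.05. The part of such cells in the age differences was not tested.

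Thbs4 ran the other way, with 6.92, 7.40, 7.51 and 7.46 in old GFP-positive samples, against 7.19, 6.94 and 6.33 in young GFP-positive samples. The groups overlapped through old replicate 1, and the difference was 0.50 with a 95% interval from 0.04 to 0.96 (limma, adjusted p = 0.462). It rested in part on the 4-month-old sample, without which it was 0.25. Old replicate 3, which had the Xist pattern of a female, left the direction of these 3 genes in place when omitted (-0.62 for Gpc4, -0.54 for Tnc and 0.44 for Thbs4).

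The remaining genes lay close together across age. Gpc6 had 9.37, 9.30, 8.73 and 8.81 in old GFP-positive samples and 8.90, 8.88 and 8.52 in young GFP-positive samples, an overlapping difference of 0.29 with a 95% interval from -0.14 to 0.72. Sparc had 10.86, 10.76, 10.41 and 10.78 in old GFP-positive samples, within the young range of 10.26 to 10.79 apart from replicate 1, at a difference of 0.16 (95% interval from -0.17 to 0.49). Gpc5 lay between 9.74 and 10.05 in old and between 9.68 and 10.02 in young GFP-positive samples, with an interval for the difference from -0.44 to 0.52. Sparcl1 lay between 12.41 and 12.62 in old and between 12.31 and 12.55 in young GFP-positive samples, with an interval from -0.19 to 0.30. For Thbs1, Thbs2 and Thbs3 the intervals ran from -0.32 to 0.15, from -0.12 to 0.32 and from -0.26 to 0.36. A change of up to these sizes is not shown to be absent. The old GFP-positive values of Gpc4, Gpc5, Gpc6, Thbs4, Tnc and Sparcl1 also lay above every young GFP-negative value. Those of Sparc and Thbs1 lay below every young GFP-negative value. The share of all genes separated in this way was not counted. The separation was not tested because age and sort fraction both differ.

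The profile of each of the 5 genes whose group means spanned at least 1 log2 unit was set against all other genes, as the root mean square difference over the 10 samples after centring each gene on its own mean. Among the closest to Gpc5 were Utp14b (0.15 log2 units) and Slitrk2 (0.17). Closest to Gpc4 were Paqr7 (0.17), Mras (0.21) and Fmo1 (0.22), to Gpc6 Tprkb (0.16), Carmil1 (0.18) and D030047H15Rik (0.19), to Thbs4 Garem1 (0.17), Aldh7a1 (0.23) and Vcl (0.24), and to Tnc Echdc2 (0.14), Rarb (0.15) and Pfn4 (0.15). Among the 10 genes themselves, the closest pairs were Thbs1 and Thbs2 (0.17), Thbs2 and Thbs3 (0.24), Thbs1 and Sparc (0.30) and Thbs1 and Thbs3 (0.33), followed by Gpc5 and Gpc6 (0.34) and Thbs4 and Gpc6 (0.35), whereas Gpc5 and Sparc, at 1.30, were the least alike. These are descriptions over 3 groups of samples, and for the 5 genes above they rest mainly on the sort difference. The profiles were not scaled, so flat genes such as Thbs1, Thbs2 and Thbs3 lie close to each other whatever their pattern. Thbs2 and Thbs3 had sort differences of opposite sign (-0.13 and 0.29).

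Receptors and binding partners of these proteins were more often lower than higher in the GFP-positive cells. Of 22 listed, 3 were higher and 8 lower past limma, where 7.68% of all genes were higher and 9.30% lower, and the median log2 difference was -0.48. Without both young samples numbered 1 the counts were 2 and 5, where 1841 of all 19965 genes passed, against 3390 with all samples. Cacna2d1, the thrombospondin receptor of neurons, averaged 6.70 ± 0.53 in young GFP-positive and 8.58 ± 0.11 in young GFP-negative cells (SD, n = 3 each), a difference of -1.88 (limma, adjusted p = 0.00141). The receptor phosphatase gene Ptprd (-1.50) and the integrin genes Itga9 (-1.82), whose product binds tenascin C, and Itgb1 (-0.66) were lower as well. The higher ones included Sdc4 (1.76), a cell surface heparan sulfate proteoglycan, and Ptprs (0.52), a phosphatase receptor of glypican 4. Other partners did not pass, such as Nlgn1 (0.23), Lrp1 (0.12) and Cd47 (-0.004), with limma adjusted p from 0.251 to 0.992.

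Other factors through which astrocytes act on synapses were mostly higher. Of 20 listed, 12 were higher and 3 lower past limma (7.68% and 9.30% of all genes), with a median log2 difference of 0.78. Without both young samples numbered 1, 8 were higher and 3 lower, where 1841 genes of the array passed, against 3390 with all samples. Clu (clusterin, 2.41), the cell adhesion gene Nrcam (1.39), Apoe (1.27), the lipid carrier that supplies cholesterol for synapses, and Mertk (1.21), a receptor used to engulf synapses, had the smallest p among the higher ones. Lower were the cytokine gene Tnf (-2.64), Tgfb1 (-1.08) and Il33 (-0.82).

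**Figure D4:**
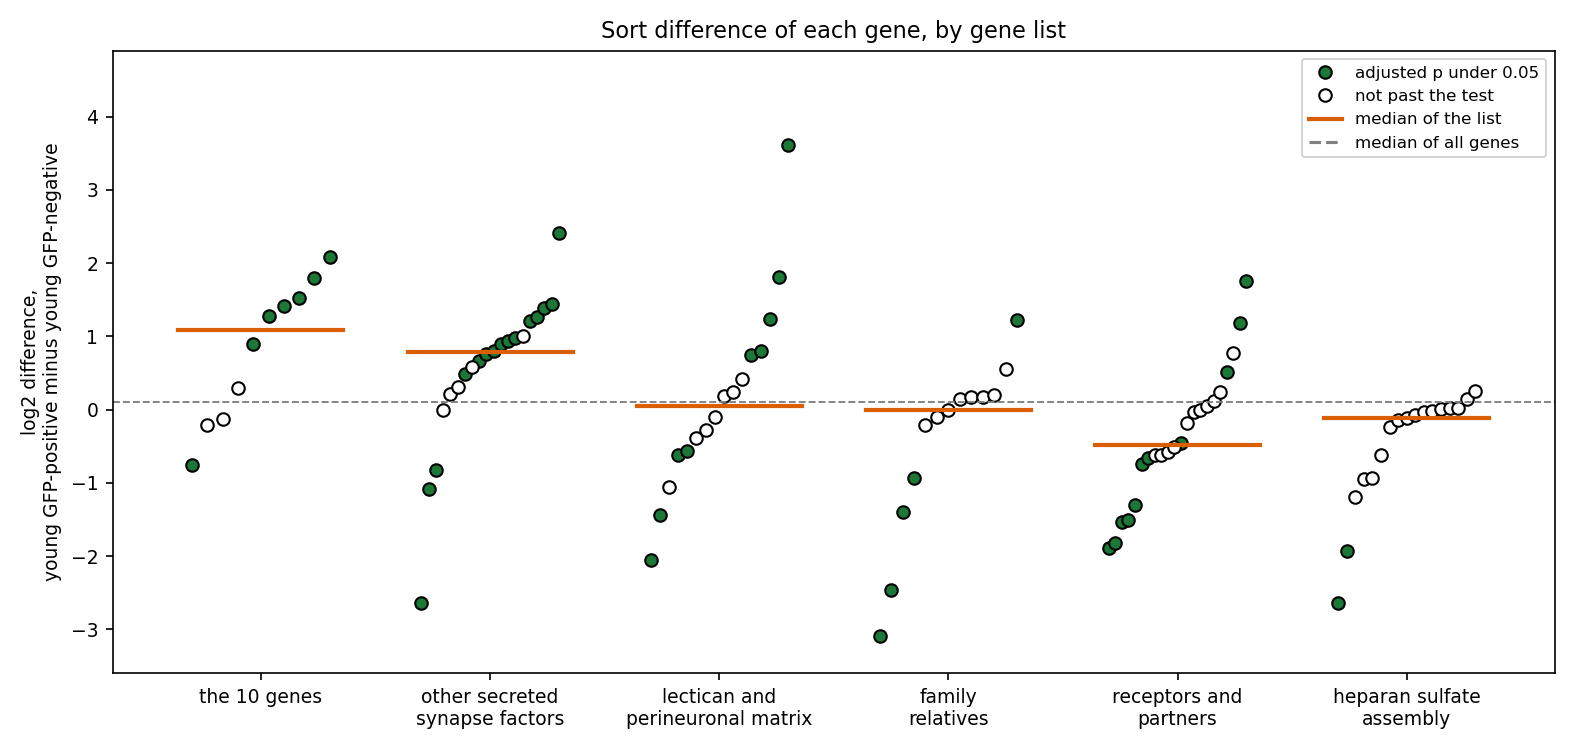
Log2 difference of young GFP-positive minus young GFP-negative cells (vertical axis) for each gene of 6 lists (horizontal axis), filled where the limma adjusted p is under 0.05, with the median of each list and, dashed, that of all genes (0.10). The 10 genes have a median of 1.09, other secreted synapse factors 0.78 and receptors and partners -0.48, and the 3 further lists lie between -0.11 and 0.05. The list labelled other secreted synapse factors also holds receptors and adhesion molecules, such as Mertk and Nrcam.

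Close relatives of the 10 genes were counted separately. Of 13 other thrombospondin, SPARC family, glypican and tenascin genes, 1 was higher and 4 lower past limma (7.68% and 9.30% of all genes), with a median of -0.01; the single higher gene is a share near that of all genes. Tnr (tenascin R), a tenascin of oligodendrocytes and perineuronal nets, had 5.69, 5.64 and 6.65 in young GFP-positive samples, against 8.27, 9.24 and 9.78 in young GFP-negative samples, a difference of -3.10 (limma, adjusted p = 9.24e-05), opposite in sign to Tnc. The testican genes Spock3 (-2.47), Spock1 (-1.40) and Spock2 (-0.94), which carry a SPARC-like domain, were lower, and Fstl1 (1.22), a secreted SPARC family protein, was higher. The other glypicans did not pass, with log2 differences of -0.21 for Gpc1, 0.56 for Gpc2 and -0.01 for Gpc3 and limma adjusted p from 0.0871 to 0.978.

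The hyaluronan-linked matrix of the brain was split. Of 16 genes, 5 were higher and 4 lower past limma (7.68% and 9.30% of all genes), with a median of 0.05. Without both young samples numbered 1, 3 were higher and 3 lower, where 1841 genes of the array passed, against 3390 with all samples. Hapln1, a link protein that joins hyaluronan to lecticans, averaged 9.90 ± 0.22 in young GFP-positive and 6.29 ± 0.12 in young GFP-negative cells (SD, n = 3 each), a difference of 3.62 (limma, adjusted p = 1.39e-07). The proteoglycan genes Bcan (1.81), Ncan (1.24) and Cspg5 (0.75) were higher, whereas Vcan (-2.05), the link protein gene Hapln2 (-0.63) and the lectican-cutting proteases Adamts4 (-1.44) and Adamts5 (-0.57) were lower. Vcan and Tnr moved with the oligodendrocyte precursor markers, all 6 of which were lower, with means from 7.04 to 7.55 in young GFP-positive and from 8.66 to 9.29 in young GFP-negative samples; the part of these cells was not tested.

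Of 17 genes that assemble, edit or release heparan sulfate, the sugar chain of the glypicans, 0 were higher and 2 lower past limma (7.68% and 9.30% of all genes). The 2 lower genes are a share near that of all genes. They were Sulf2 (-2.65), which removes sulfate groups from finished chains, and Hs3st1 (-1.93), which adds them. At an unadjusted p under 0.05 there were 0 higher and 5 lower, where 30.4% of all genes had such a p (16.1% higher and 14.2% lower), and the median was -0.11. The chain-building genes Ext1 (-0.03), Ext2 (-0.24) and Ndst1 (0.03) did not pass, with limma adjusted p from 0.343 to 0.942.

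With age, no gene of these 5 lists passed limma in GFP-positive cells, where 0.0150% of all genes passed. At an unadjusted p under 0.05 there were 0, where 10.2% of all genes had such a p. The closest in each list were the integrin gene Itgb1 (-0.22) and the postsynaptic adhesion gene Lrrtm4 (-0.71) among partners, Wnt5a (-0.37) and Chrdl1 (0.34) among the other synapse factors, Tnxb (0.24) and Tnn (0.20) among relatives, Hapln2 (0.23) and Adamts5 (0.22) in the hyaluronan-linked matrix and Ndst2 (-0.21) and Ndst4 (0.29) in heparan sulfate assembly, with limma adjusted p from 0.491 to 0.567. Chrdl1, which astrocytes secrete to mature AMPA receptors, was higher in the sort comparison by 0.98 ± 0.19 (SE; limma, adjusted p = 0.00407).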

How the data were processed

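Expression was measured on 10 arrays, 4 of old GFP-positive, 3 of young GFP-positive and 3 of young GFP-negative cells, grouped by title. The deposited table holds log2 values made by the authors with RMA, per the submitters' processing notes, with probes regrouped by RefSeq gene of mm9, per the series description; the sources used here give no RMA version. RNA was amplified before hybridisation, per the labels' protocols. RMA sets all arrays to the same intensity distribution, so differences in total signal are removed, and summarised values understate changes of dim genes. The number of arrays limits the precision. The submitters left out 1 young array whose fold changes were skewed, per the series description.

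Of 31672 probe sets, 24590 matched 1 gene symbol in a RefSeq table (GRCm38.p6, used for names) and 7082 none, which left 19965 genes, each read from its brightest probe set. The test was limma 3.58.1 under R 4.3.3 (lmFit and eBayes), two-sided, in 1 fit of 3 group means with 4.07 prior degrees of freedom beside 7 residual ones and with Benjamini-Hochberg adjustment over all genes. SE is the moderated standard error, SD that between samples. The age comparison shares the young GFP-positive samples with the sort comparison. Alternatives covered filters on dim genes, normalization, the choice of probe set, array weights, the variance prior, the replicate number as a block and samples left out. The fit was tested on simulated data of 19965 genes, with 50 genes shifted at each of 0.5, 1, 2 and 3 log2 units. Of those shifted by 0.5 it called 16% in the sort and 26% in the age comparison. Of those shifted by 1 it called 66% and 82%. Far fewer genes were shifted than the 3390 called in the real sort comparison. The adjusted threshold was therefore stricter, and these rates do not give the sensitivity of the real sort comparison. More genes were shifted than the 3 called in the real age comparison. There the simulated threshold was laxer, and the rates do not give the sensitivity of the real age comparison either. The submitters name Significance Analysis of Microarrays, which was not run. Figures were drawn with matplotlib 3.10.9. The text names the 10 genes, Sox1 and, from each list, at most 4 genes a direction that passed, by smallest p, or 2 if no gene passed; Nlgn1, Lrp1 and Cd47, the glypicans Gpc1, Gpc2 and Gpc3, the genes Ext1, Ext2 and Ndst1, Chrdl1 in the sort comparison, and Xist, Ddx3y and Ttr were added after their values were seen. Some genes that this rule selects are not reported here. The 10 genes, the lists, the tests and the alternatives were chosen with earlier results of these data known.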

Additional observations from a re-analysis of the deposited data

How the results depend on the processing

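Of the 10 genes, 6 to 8 passed in the sort comparison under all 22 alternatives and 0 in the age comparison under all 21. The exceptions in the sort calls were Sparc, lost without both young samples numbered 1, Thbs3, gained without young GFP-negative replicate 3 (0.46) and with array weights (0.40, limma adjusted p = 0.0286), and Gpc4, which was not in the fit without the dimmest 50% of genes. The count over all genes in the sort comparison was 3390, and 1841 without both young samples numbered 1 (1800 shared), 5736 with array weights and 5242 probe sets with all probe sets, while omitting 1 sample gave 2393 to 3600. In the age comparison the count was 3, between 0 and 9 on omitting 1 sample (9 without young GFP-positive replicate 1, 2 without old replicate 3 or 4 and 0 without any other), 9 without the dimmest 50% of genes, 5 with the mean of a gene's probe sets and without both young samples numbered 1, 8 with all probe sets, 20 with array weights, 1 without both 4-month-old samples and 0 with quantile normalization, only the 2 groups compared or a variance trend with a robust prior; the cause was not tested. Age differences near 0 changed sign without young GFP-positive replicate 3 and without both 4-month-old samples (-0.013 for Sparcl1 and -0.070 for Gpc5 in each), and with array weights (-0.000325 for Gpc5); omitting 1 sample gave -0.013 to 0.106 for Sparcl1 and -0.070 to 0.107 for Gpc5.

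The young fractions share replicate numbers. Deviations from the group means correlated across genes with r of 0.12, 0.02 and 0.19 for numbers 1, 2 and 3. Samples of unlike number had r from -0.18 to 0.08, so numbers 1 and 3 had the highest values. Young GFP-positive replicate 2 correlated best with young GFP-negative replicate 1 (0.08). Transthyretin was alike within each number (12.59 and 12.69, 9.53 and 9.26, 6.03 and 5.88). The mice numbered 2 had different ages by title and the labels name no pairs, so the numbers were not taken as pairs in the main fit. With the replicate number as a block, 2824 genes passed, and all 7 calls among the 10 genes held. The list counts that moved by over 1.5 times were those of heparan sulfate assembly, 2 in the main setting and 1 to 7 in others, and of receptors, 11 and then 7 without both young samples numbered 1. Dim genes are limited by the lack of a detection call.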

Other observations

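Within the young GFP-positive samples, 6 of the 10 genes were highest in the 7-month-old mouse, intermediate in the 5-month-old mouse and lowest in the 4-month-old mouse. In that order of mice, Gpc4 had 7.56, 7.07 and 6.70, Thbs4 had 7.19, 6.94 and 6.33 and Tnc had 7.72, 7.62 and 7.32. Gpc5 (10.02, 10.01 and 9.68), Gpc6 (8.90, 8.88 and 8.52) and Sparcl1 (12.55, 12.50 and 12.31) had the same order with a smaller range. These 6 were also the genes that were higher in the sort comparison. In the same order of samples the astrocyte marker mean was 11.06, 11.03 and 10.78, and the ependymal and choroid plexus mean 7.95, 6.95 and 6.40. The microglia mean rose (6.18, 6.38 and 6.90), as did the oligodendrocyte mean (8.02, 8.43 and 8.78). The part of such cells in the order was not tested. The share of all genes with this order was not counted. Each age is 1 sample, and the order was not tested.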
